A study of Mus musculus with 11 samples.

Results

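The comparison described here sets the 3 arrays of cells sorted from tgTbr2GFP mice against the 3 arrays of cells sorted from NesGFP mice, 6 of the 11 arrays of the series, across 16527 genes. The arrays were chosen by their titles, and each gene is read by the probe set that names it alone and has the highest mean over all arrays. tgTbr2GFP mice carry green fluorescent protein (GFP) in a bacterial artificial chromosome (BAC) transgene of Eomes, the gene of the transcription factor Tbr2. NesGFP mice carry GFP in a Nestin (Nes) transgene. The 3 arrays of kiTbr2GFP mice, in which GFP was knocked in at Eomes, serve as a second Tbr2 reporter. The 2 arrays of PomcGFP mice (a Pomc GFP transgene) entered the estimate of the spread. Like all arrays, they also entered the filter on low values and the choice of probe sets. All mice were adults of postnatal day 35, with no treatment named. The dentate gyri of dorsal and ventral brain slices were dissected out and dissociated, GFP cells were sorted by flow cytometry, and their RNA was amplified and hybridised to Affymetrix Mouse Gene ST arrays. A sister slice of each animal went to live imaging.

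Each line reports the activity of the regulatory DNA that drives its GFP, not a cell stage as such. The labels do not say which elements the Nestin transgene holds or how the sorting gates were set, and the signal of GFP itself was not analysed here. Nor do they tie arrays to individual animals, so p-values measure the spread between these arrays, which may be technical. In sorted pools of this kind fewer cells of a type and less RNA per cell cannot be told apart.

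In the adult dentate gyrus, radial glia-like stem cells that contain Nestin and Gfap divide rarely and give rise to intermediate progenitors. The progenitors express Eomes, divide a few times and leave the cycle as Dcx-positive immature granule neurons, which mature into Prox1-positive granule cells. Nestin is also present in vessel-associated cells of the adult brain, and Nestin regulatory DNA in reporter mice is known for activity in stem cells. Cajal-Retzius neurons, which secrete reelin and persist at the edge of the dentate gyrus for some time after birth, have a history of Tbr2 as well.

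Values are log2 levels of the deposited robust multi-array average (RMA), and a log2 difference of 1 is a 2-fold ratio. Medians over all probe sets were 7.005 to 7.149 across the arrays, while the 75th percentile was 8.23 to 8.35 on the NesGFP arrays and 8.10 to 8.18 on all others. At the low end, the 25th percentile was 5.90 to 6.01 on the NesGFP arrays and 6.05 to 6.20 on all others. Pearson's r across genes, which are not independent replicates, was 0.967 to 0.978 between tgTbr2GFP arrays, 0.939 to 0.959 between NesGFP arrays and 0.786 to 0.839 between the lines. The tgTbr2GFP arrays did not share a sex-linked pattern. Xist, the RNA that silences the inactive X chromosome, read log2 levels of 6.40, 11.44 and 11.27 on tgTbr2GFP arrays 1, 2 and 3 and 8.28, 8.80 and 8.26 on the NesGFP arrays. The Y-linked Eif2s3y read log2 levels of 9.76, 3.75 and 8.24 on tgTbr2GFP arrays 1, 2 and 3 and 7.24, 8.13 and 6.92 on the NesGFP arrays. tgTbr2GFP array 1 was thus low in Xist, array 2 was low in Eif2s3y, and array 3 was high in both.

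The named drivers followed the labels. Eomes read log2 levels of 9.83, 10.34 and 10.39 on tgTbr2GFP arrays 1, 2 and 3 and 8.52, 8.65 and 9.23 on the NesGFP arrays. All 3 tgTbr2GFP arrays lay above all NesGFP arrays, at a log2 difference of 1.38 ± 0.20 (standard error (SE), n = 3 and 3; limma, Benjamini-Hochberg adjusted p = 0.000194), a ratio of 2.61. Nes read log2 levels of 5.78, 5.91 and 6.14 in tgTbr2GFP and 7.63, 7.51 and 6.91 in NesGFP, a log2 difference of -1.41 ± 0.18 (adjusted p = 8.04e-05). The tgTbr2GFP levels of Nes were below the 25th percentile of their own arrays, where the size of a difference is imprecise. Gfap, a filament protein shared by stem cells and astrocytes, read log2 levels of 7.61, 7.33 and 7.89 against 9.82, 9.93 and 9.92. Its arrays did not overlap either, and the log2 difference was -2.28 ± 0.16 (adjusted p = 1.28e-06).

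Across the 16527 genes, 6867 passed the test at an adjusted p under 0.05, which is 41.6%. In tgTbr2GFP 2605 genes (15.8%) were higher and 4262 (25.8%) were lower. Past a 2-fold difference, 1015 genes (6.14%) were higher and 1624 (9.83%) lower. The arrays of the lines did not overlap for 2478 of the genes called higher and 4063 of those called lower, while over all genes they lay fully above for 19.7% and fully below for 28.4%. The median log2 difference over all genes was -0.03. How the arrays were scaled set the split: 37.9% of the called genes were higher as deposited, 49.4% after cyclic loess between arrays and 49.98% after centring each array on its median, with a median log2 difference of 0.07 over all genes after centring. The counts for gene groups below are read against 15.8% higher and 25.8% lower.

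Several markers of the sequence from progenitor to immature granule neuron were higher in tgTbr2GFP, while stem cell markers were lower or did not pass. Of 21 stage markers, 10 were higher and 4 lower. Neurod1, a transcription factor needed for granule neuron differentiation, read log2 levels of 10.17, 10.49 and 10.29 in tgTbr2GFP and 8.01, 7.77 and 8.22 in NesGFP. The difference, 2.31 ± 0.14 (adjusted p = 6.15e-07), was the largest of the 21 in this direction. Dcx, a microtubule-associated protein of migrating neuroblasts, read log2 levels of 10.88, 11.07 and 10.94 against 8.57, 9.15 and 8.62, a log2 difference of 2.19 ± 0.15 (adjusted p = 9.14e-07). For Prox1, which sets granule cell identity, the log2 levels were 11.02, 11.27 and 11.04 against 9.63, 9.45 and 9.58, a log2 difference of 1.55 ± 0.11 (adjusted p = 1.57e-06). None of these 3 genes overlapped between the lines. Neurod4 was higher by a log2 difference of 2.14 ± 0.29, Neurod6 by 1.29 ± 0.24 and Sox11, a factor of newborn neurons, by 1.07 ± 0.12 (adjusted p = 0.000111, 0.000996 and 2.87e-05). Rbfox3, the neuronal nuclear antigen NeuN, was higher by a log2 difference of 0.54 ± 0.14 (adjusted p = 0.0106). Neurog2, a proneural factor of progenitors, was higher by a log2 difference of 0.45 ± 0.13 (adjusted p = 0.0132), and without tgTbr2GFP array 3 the adjusted p was 0.0578.

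**Figure D1:**
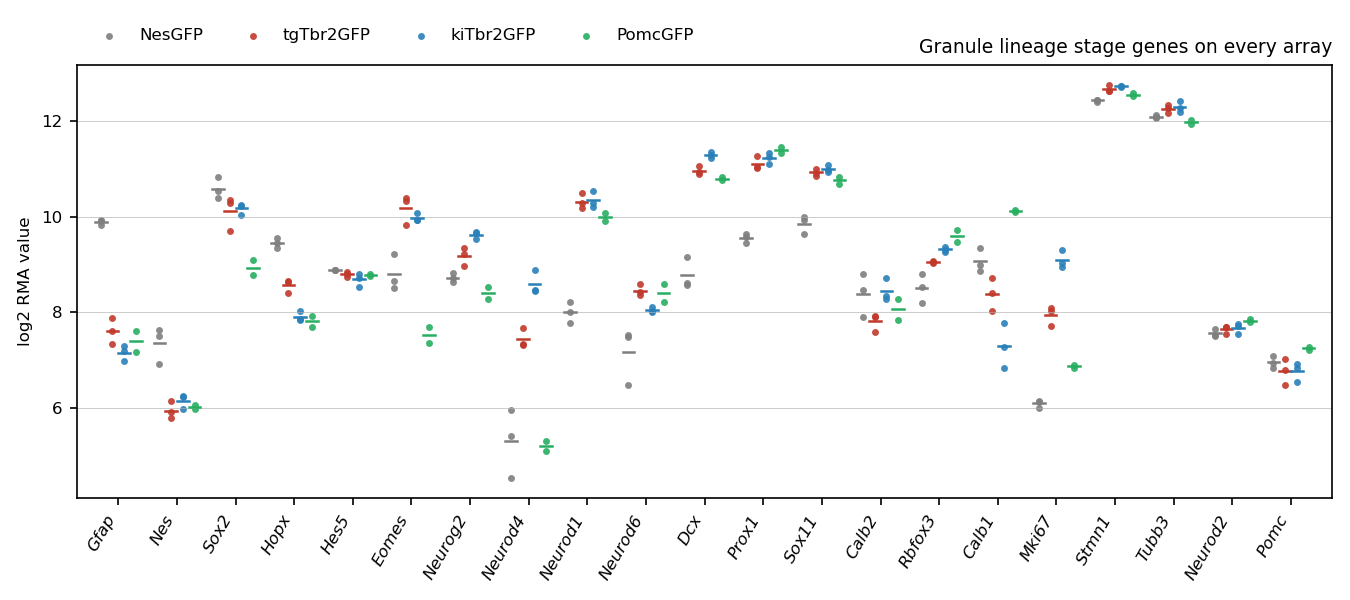
Log2 RMA level (y axis) of the 21 stage markers in each line, with a point for each array and a bar at the mean of the line. Eomes, Neurod1, Dcx, Prox1 and Mki67 lie higher on all tgTbr2GFP arrays than on all NesGFP arrays, and Gfap, Nes and Hopx lie lower.

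Hopx, a marker of quiescent stem cells, read log2 levels of 8.41, 8.64 and 8.65 in tgTbr2GFP and 9.35, 9.55 and 9.44 in NesGFP, a log2 difference of -0.88 ± 0.12 (adjusted p = 0.000105). Sox2, a transcription factor of stem cells and early progenitors, read log2 levels of 9.70, 10.29 and 10.35 against 10.40, 10.82 and 10.53. The Sox2 arrays lay apart without overlap, but the log2 difference of -0.47 ± 0.18 did not pass (adjusted p = 0.0597). It passed without NesGFP array 1 or tgTbr2GFP array 3 (adjusted p = 0.0496 and 0.0411). Calb1, a calcium-binding protein of mature granule cells, was lower by a log2 difference of -0.68 ± 0.24 (adjusted p = 0.0378), a call that was lost without NesGFP array 1 or 3 or tgTbr2GFP array 2 or 3 (adjusted p from 0.0507 to 0.146). Calb2, the calretinin of newly formed neurons, had a log2 difference of -0.58 ± 0.22 (adjusted p = 0.0539), and without NesGFP array 3 the adjusted p was 0.0044. The pan-neuronal tubulin Tubb3 and the microtubule regulator Stmn1 had log2 levels above 12 on all 6 arrays, with log2 differences of 0.17 and 0.24 (adjusted p = 0.216 and 0.0565). Pomc differed by -0.18 and the Notch target Hes5 by -0.09 on the log2 scale (adjusted p = 0.367 and 0.534).

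Of 32 genes of neural stem cells and radial glia, 22 were lower and 2 higher, with a median log2 difference of -0.96. Their mean log2 level was 8.12, 8.09 and 8.23 on the tgTbr2GFP arrays and 8.92, 9.12 and 9.07 on the NesGFP arrays. Id3, an inhibitor of basic helix-loop-helix factors that responds to BMP, read log2 levels of 6.96, 6.60 and 6.88 against 9.54, 9.52 and 9.67. Its log2 difference was -2.77 ± 0.16 (adjusted p = 4.1e-07). Etv5, a transcription factor downstream of FGF signalling, fell less evenly, with log2 levels of 8.01, 6.45 and 8.16 against 9.79, 9.76 and 10.27 and a log2 difference of -2.40 ± 0.38 (adjusted p = 0.000411). Thbs4, a secreted thrombospondin of astrocytes and stem cells, was lower at a log2 difference of -1.89 ± 0.13. The 2 genes called higher were Cdk6 at a log2 difference of 1.00 and Pax6 at 0.44 (adjusted p = 0.0173 and 0.0245). Both calls were lost without tgTbr2GFP array 3 (adjusted p = 0.0757 and 0.092), and each was also lost without other single arrays.

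Of 20 genes of intermediate progenitors, 9 were higher and 3 lower, at a median log2 difference of 0.23. Elavl4, a neuronal RNA-binding protein that stabilises transcripts, read log2 levels of 9.10, 9.80 and 9.43 in tgTbr2GFP and 7.27, 6.90 and 7.0004 in NesGFP, a log2 difference of 2.39 ± 0.19 (adjusted p = 2.27e-06). Its relative Elavl2 was higher by a log2 difference of 1.62 ± 0.18. The lower members included Gadd45g at a log2 difference of -1.07 and Rgs16, a brake on G-protein signalling, at -0.67 (adjusted p = 0.00161 and 0.00882).

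Of 27 genes of immature granule neurons, 11 were higher and 2 lower, at a median log2 difference of 0.30. After cyclic loess 17 were higher and 1 lower. Zeb2, a repressor active in newborn neurons, read log2 levels of 10.45, 10.51 and 10.37 against 8.61, 8.99 and 8.78 and was higher by 1.65 ± 0.12 (adjusted p = 1.27e-06). Ncam1, a cell adhesion molecule whose polysialylated form marks these cells, read log2 levels of 9.74, 9.69 and 9.71 against 10.43, 10.45 and 10.39, a log2 difference of -0.71 ± 0.11 (adjusted p = 0.00032). The array measures the Ncam1 transcript, not the sialylated protein. Islr2 was the other lower member (-0.46, adjusted p = 0.0297), and that call was lost without NesGFP array 1 or tgTbr2GFP array 1 or 3 (adjusted p from 0.0729 to 0.108).

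Of 28 mature neuron genes, 7 were higher and 3 lower. The median log2 difference was 0.19. Gria2, the AMPA receptor subunit that limits calcium entry, read log2 levels of 11.997, 11.88 and 11.84 in tgTbr2GFP and 9.89, 9.72 and 9.08 in NesGFP, a log2 difference of 2.34 ± 0.17 (adjusted p = 1.71e-06). Map2, a microtubule-associated protein of dendrites, was higher by 1.75 ± 0.12 and Syt1, the calcium sensor of synaptic vesicles, by 1.24 ± 0.15 on the log2 scale (adjusted p = 1.03e-06 and 5.45e-05). Ncdn, neurochondrin, was lower, with log2 levels of 8.59, 8.22 and 8.47 against 9.81, 9.70 and 9.73 and a log2 difference of -1.32 ± 0.12 (adjusted p = 7.83e-06).

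Markers of astrocytes, myelin and endothelium were lower without exception among those measured. All 24 measured astrocyte genes were lower in tgTbr2GFP, at a median log2 difference of -1.86. Slc6a11, a GABA transporter of astrocytes, read log2 levels of 8.57, 8.51 and 8.13 against 10.77, 10.75 and 10.55, a log2 difference of -2.29 ± 0.14 (adjusted p = 5.45e-07). F3, tissue factor, was lower at a log2 difference of -2.90 and the secreted protease Htra1 at -2.85. The mean log2 level of the astrocyte genes was 8.94, 8.48 and 8.67 on the tgTbr2GFP arrays and 10.38, 10.40 and 10.31 on the NesGFP arrays, and Gfap, which also marks stem cells, belongs to this group too.

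In the oligodendrocyte lineage, 11 of 14 precursor genes and 21 of 21 oligodendrocyte and myelin genes were lower, at median log2 differences of -1.46 and -2.20. Mag, the myelin-associated glycoprotein, read log2 levels of 8.90, 6.71 and 6.96 in tgTbr2GFP and 11.84, 11.88 and 11.72 in NesGFP. Array 1 was the highest of the tgTbr2GFP arrays for Mag and yet lay below all NesGFP arrays, and the log2 difference was -4.29 ± 0.47 (adjusted p = 2.42e-05). Opalin, a membrane protein of myelin, showed the same array order, with log2 levels of 8.70, 5.57 and 6.19 against 11.21, 11.15 and 10.60 and a log2 difference of -4.17 ± 0.61. Pdgfra, the growth factor receptor that defines precursors, was lower at a log2 difference of -2.93 ± 0.22, Gpr17, a receptor of committed precursors, at -2.55 ± 0.15 and the lineage factor Olig2 at -2.18 ± 0.13 (adjusted p = 1.95e-06, 4.62e-07 and 4.62e-07). The mean log2 level of the myelin genes was 8.85, 7.29 and 7.61 on tgTbr2GFP arrays 1, 2 and 3 and 10.19, 10.31 and 10.23 in NesGFP. Without tgTbr2GFP array 1 all 21 remained lower, at a median of -2.78.

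Endothelial genes were lower in 23 of 23 cases, mural cell genes (smooth muscle and pericytes) in 16 of 17 and meningeal fibroblast genes in 10 of 14, at median log2 differences of -2.99, -2.20 and -1.57. Cdh5, the cadherin of endothelial junctions, read log2 levels of 7.48, 6.89 and 7.24 in tgTbr2GFP and 11.12, 11.05 and 10.80 in NesGFP, a log2 difference of -3.79 ± 0.16 (adjusted p = 1.21e-07). Acta2, the smooth muscle actin, read 6.26, 6.08 and 6.46 against 10.17, 9.91 and 9.97 on the log2 scale, a log2 difference of -3.75 ± 0.17 (adjusted p = 1.21e-07). Neither gene overlapped between the lines. Ptgds, prostaglandin D synthase of the meninges and choroid plexus, was lower at a log2 difference of -3.30 ± 0.15. The mean log2 level of the endothelial genes was 7.40, 6.69 and 6.95 in tgTbr2GFP, near the median of those arrays, and 9.87, 9.74 and 9.62 in NesGFP. Mural genes had mean log2 levels of 7.01, 6.77 and 6.94 against 9.17, 9.11 and 9.19. Without tgTbr2GFP array 1, 22 of the 23 endothelial genes were lower, at a median of -3.08. Array 1 was the highest of the tgTbr2GFP arrays in the mean levels of the astrocyte, myelin, endothelial and mural genes. These glial and vascular levels moved with the whole contrast, and their part in the differences of other genes between the lines was not tested.

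Other cell types differed less between the lines. Microglia genes numbered 14, with 2 called higher and 1 called lower, and all 3 calls were lost without single arrays. Their mean log2 level was 7.16, 6.80 and 7.01 in tgTbr2GFP and 6.88, 6.89 and 6.82 in NesGFP. Among 15 genes of GABAergic interneurons 1 was higher and 3 lower, with a median log2 difference of -0.05 that changed sign with the setting and calls that were each lost without single arrays. Genes of the ependyma and choroid plexus split evenly, 2 of 11 in each direction, led by the potassium channel Kcnj13 at a log2 difference of 2.01 ± 0.18 and the secreted Rarres2 at -2.41 ± 0.16 (adjusted p = 5.07e-06 and 8.62e-07). The other member in each direction, Folr1 at 0.34 and Dynlrb2 at -0.75 on the log2 scale, lost its call without single arrays.

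**Figure D2:**
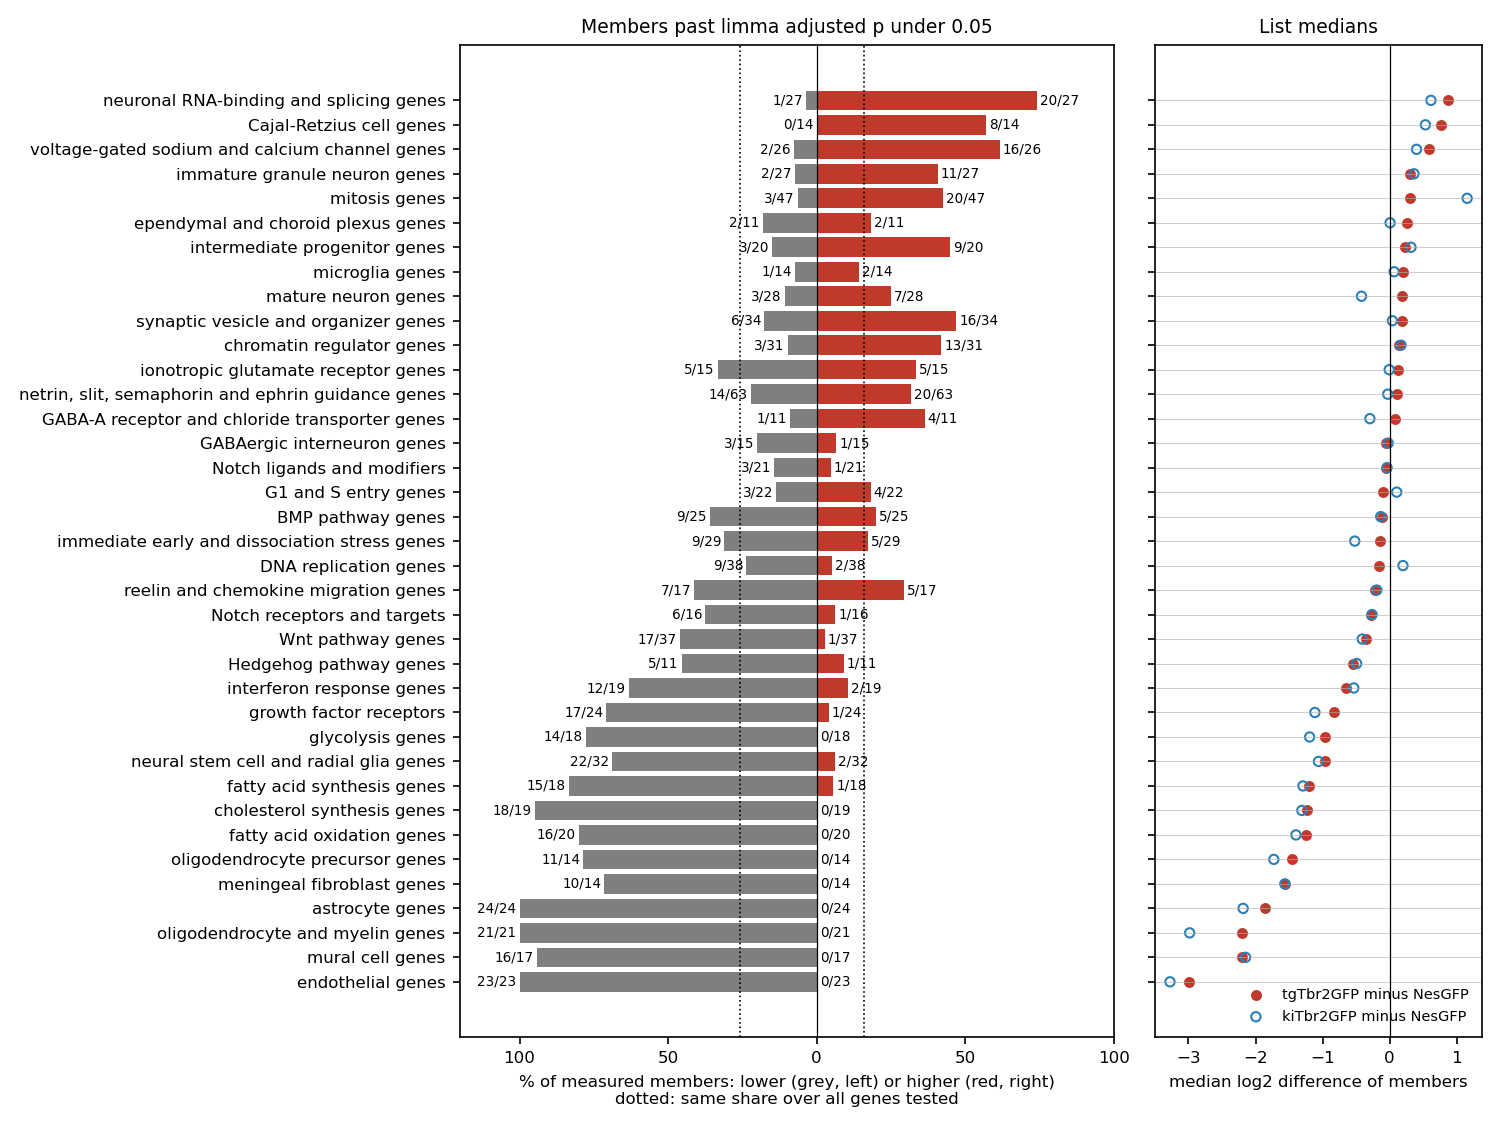
Left: percent of the measured members of each gene list that were lower (grey) or higher (red) in tgTbr2GFP than in NesGFP at an adjusted p under 0.05, with counts, and dotted lines at the shares over all genes (25.8% lower, 15.8% higher). Right: median log2 difference from NesGFP of each list in tgTbr2GFP (filled red) and in kiTbr2GFP (open blue), which share the NesGFP arrays; the glial, vascular and lipid lists lie at the negative end.

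Genes of mitosis were called higher more often than lower in tgTbr2GFP, while the share of DNA replication genes called lower was near that of all genes. Of 47 mitosis genes, 20 were higher and 3 lower, at a median log2 difference of 0.30, and 13 of the 20 were higher by over 2-fold. Smc4, a condensin subunit that compacts chromosomes, read log2 levels of 9.66, 9.70 and 9.86 in tgTbr2GFP and 6.36, 7.27 and 6.90 in NesGFP, a log2 difference of 2.89 ± 0.19 (adjusted p = 8.62e-07). Knl1, a kinetochore scaffold, read log2 levels of 8.17, 7.64 and 8.11 against 5.14, 5.58 and 4.90, a log2 difference of 2.77 ± 0.21 (adjusted p = 1.76e-06). Mki67, the proliferation marker Ki-67, read 7.71, 8.02 and 8.08 against 6.13, 6.003 and 6.15 on the log2 scale and was higher by 1.85 ± 0.13 (adjusted p = 1.26e-06). All 3 genes lay apart without overlap, and their NesGFP levels were near or below the 25th percentile of 5.90 to 6.01 on those arrays for Knl1 and Mki67. Cenpe, a kinetochore motor, was higher by a log2 difference of 2.39 and Kif11, the spindle motor, by 1.80.

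Not all mitosis genes shared this. Mad2l1, a spindle checkpoint protein, Cdca8 and Birc5, subunits of the chromosomal passenger complex, had log2 differences of -0.71, -0.70 and -0.34 (adjusted p = 0.0408, 0.00368 and 0.0473). The calls for Mad2l1 and Birc5 were lost under several settings, and after cyclic loess or centring 1 of the 47 genes was lower. Cdk1, the mitotic kinase, chosen after its values were seen, read log2 levels of 7.54, 7.40 and 7.54 in tgTbr2GFP and 8.51, 8.14 and 7.11 in NesGFP, which overlap (log2 difference -0.43, adjusted p = 0.237). Top2a, the topoisomerase that untangles sister chromosomes and also chosen after its values were seen, was higher, with log2 levels of 9.05, 9.36 and 9.17 against 7.30, 7.96 and 8.27 and a log2 difference of 1.35 (adjusted p = 0.000271).

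Of 22 genes of G1 and entry into S phase, 4 were higher and 3 lower. Without tgTbr2GFP array 3, 2 were higher. Ccnd1, cyclin D1, read log2 levels of 7.80, 7.72 and 7.75 against 9.28, 9.36 and 9.54 and was lower at -1.64 ± 0.12 (adjusted p = 1.81e-06). Ccne2, cyclin E2, was higher by a log2 difference of 1.61 ± 0.27 and Rb1, the retinoblastoma protein that restrains S phase entry, by 1.21 ± 0.27 (adjusted p = 0.000627 and 0.00417). Of 38 DNA replication genes, 2 were higher and 9 lower, at a median log2 difference of -0.16. Without tgTbr2GFP array 1 the lower count was 3, without array 3 it was 4, and after cyclic loess or centring it was 5. Pola1, the catalytic subunit of polymerase alpha, was higher by a log2 difference of 1.52 ± 0.19 (adjusted p = 7.41e-05).

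The promoters of the mitosis genes are shown because members that share a motif did not move alike. RefSeq (GRCm38.p6) gave 45 promoters for 41 of the 47 genes, each read over the 250 bases before the start site on both strands. The cell cycle homology region, searched as TTTGAA and its reverse complement TTCAAA and known as a site of cell cycle-dependent repression, was present in 16 of the 45 (35.6%) and in 11.3% of the promoters of all tested genes. The CCAAT box, searched as CCAAT or ATTGG, was present in 34 of the 45 (75.6%) and in 34.2% of the promoters of tested genes. A window of 60 bases is printed 5′ to 3′ on the strand of the gene, with 1 TTTGAA or TTCAAA match in capitals (the Mki67 window holds a second in lower case); those of Smc2, Kif11, Top2a and Cdk1 were chosen after their values were seen.
Mki67, chr7:135716463-135716522, minus strand: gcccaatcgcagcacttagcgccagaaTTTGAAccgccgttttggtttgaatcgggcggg
Kif11, chr19:37376322-37376381, plus strand: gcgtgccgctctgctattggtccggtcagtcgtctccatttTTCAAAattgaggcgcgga
Smc2, chr4:52439049-52439108, plus strand: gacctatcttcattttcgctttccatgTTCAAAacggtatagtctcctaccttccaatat
Top2a, chr11:99024190-99024249, minus strand: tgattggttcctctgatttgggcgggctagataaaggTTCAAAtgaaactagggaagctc
Cdk1, chr10:69352951-69353010, minus strand: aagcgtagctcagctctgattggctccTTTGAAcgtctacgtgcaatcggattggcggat
Mki67, Kif11, Smc2 and Top2a were higher in tgTbr2GFP, at log2 differences of 1.85, 1.80, 2.14 and 1.35, and Cdk1 was not called. The other genes with a match, also named after their values were seen, were divided. Ect2, Ncapg and Kif15 were higher, at log2 differences of 0.65, 1.16 and 0.94. Ube2c, Kif2c, Cdc20, Ncapd2, Prc1, Hmgb2 and Ccnb2 were not called, at log2 differences from -0.38 to 0.30. A match of 6 letters is a description of the sequence and not evidence of binding.

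Notch, BMP, Wnt and Hedgehog signalling act on adult stem cells. Among Notch receptors and targets 6 of the 16 were lower and 1 was higher, the co-activator Maml3 at a log2 difference of 0.50, a call lost without tgTbr2GFP array 2 (adjusted p = 0.0688). Notch2, a receptor linked to stem cell quiescence, read log2 levels of 7.05, 7.22 and 6.84 in tgTbr2GFP and 8.97, 8.95 and 8.78 in NesGFP, a log2 difference of -1.86 ± 0.13 (adjusted p = 9.96e-07). The Notch targets Hey1 and Hes1 were lower at log2 differences of -1.63 ± 0.26 and -1.23 ± 0.32 (adjusted p = 0.000442 and 0.00893). Another target, Hes5, given above with the stage markers, was among the 9 of the 16 that were not called. Notch1 was lower at a log2 difference of -1.05 ± 0.20. Of 21 Notch ligands and modifiers, 3 were lower and 1 was higher, and without NesGFP array 3 the lower count was 5. Adam17, a protease that can cleave Notch, and Lfng, a glycosyltransferase that tunes its ligand response, were lower, at log2 differences of -1.34 and -1.004. Mib1, the ligase that activates the ligands, was higher by a log2 difference of 0.64 (adjusted p = 0.000298).

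Of 25 BMP pathway genes, 9 were lower and 5 higher. Without NesGFP array 1 or tgTbr2GFP array 2 the higher count was 3. The lower members included the ligands Bmp4 and Bmp2 and the targets Id3 and Id1. Bmp4 read log2 levels of 6.53, 6.51 and 6.66 in tgTbr2GFP and 8.76, 9.03 and 9.08 in NesGFP, a log2 difference of -2.39 ± 0.14 (adjusted p = 3.71e-07). Bmp2 was lower at a log2 difference of -1.19 and Id1 at -1.06. The receptors Acvr2a and Bmpr2 went the other way, at log2 differences of 1.91 ± 0.10 and 0.80 ± 0.11 (adjusted p = 2.62e-07 and 0.00013), and the shared signal transducer Smad4 was higher by 0.40 (adjusted p = 0.0112).

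Among 37 Wnt pathway genes 17 were lower and 1 higher, at a median log2 difference of -0.35. Nkd1 and Apcdd1, inhibitors that Wnt signalling induces, were lower at log2 differences of -2.59 ± 0.14 and -1.69 ± 0.10, and the receptors Fzd4 and Fzd6 at -1.53 ± 0.17 and -1.45 ± 0.17. Another receptor of the same family, Fzd3, read log2 levels of 9.71, 9.65 and 9.64 against 8.20, 8.62 and 8.12 and was higher by 1.36 ± 0.15 (adjusted p = 2.46e-05). Of 11 Hedgehog pathway genes, 5 were lower and 1 higher. Hhip and Ptch1, which are both targets and inhibitors of the pathway, were lower at log2 differences of -0.96 and -0.71, as were the co-receptors Boc and Gas1 at -0.82 and -0.79 (adjusted p from 0.00204 to 0.00435). The third co-receptor, Cdon, was higher by a log2 difference of 0.91 ± 0.18 (adjusted p = 0.00149). Of 24 growth factor receptors, 17 were lower and 1 was higher, the insulin receptor Insr at a log2 difference of 0.50, a call lost without NesGFP array 1 or tgTbr2GFP array 3 (adjusted p = 0.0673 and 0.0775). With the mean of the probe sets of Insr the log2 difference was 0.24 (adjusted p = 0.146). The lower ones were led by receptors of vessels and of oligodendrocyte precursors, with log2 differences of -3.50 for Flt1, -3.40 for Tek and -2.93 for Pdgfra.

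Genes of axon guidance and migration were split between higher and lower members. Of 63 netrin, slit, semaphorin and ephrin guidance genes, 20 were higher and 14 lower. Dcc, the netrin receptor, read log2 levels of 10.43, 10.62 and 10.22 in tgTbr2GFP and 7.95, 8.63 and 7.39 in NesGFP, a log2 difference of 2.44 ± 0.25 (adjusted p = 1.41e-05). The slit receptor Robo2 was higher by a log2 difference of 1.78 ± 0.13, and the secreted semaphorins Sema3a and Sema3c were higher by 2.07 ± 0.20 and 1.71 ± 0.17. The named semaphorins that were lower are held at the membrane: Sema4d at a log2 difference of -1.95 ± 0.14, Sema7a at -1.80 ± 0.11 and Sema6a at -1.60 ± 0.17. Efna1, an ephrin of vessels, was lower at a log2 difference of -1.73 ± 0.23 (adjusted p = 0.000101).

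Of 17 reelin and chemokine migration genes, 5 were higher and 7 lower, and without tgTbr2GFP array 3 the higher count was 3. Reln, the secreted guide of neuronal layering, read log2 levels of 10.59, 11.33 and 10.92 in tgTbr2GFP and 7.21, 7.87 and 8.17 in NesGFP, a log2 difference of 3.20 ± 0.27 (adjusted p = 3.84e-06). Lrp8, a reelin receptor, was higher by a log2 difference of 0.91 ± 0.14 and Cdk5r1, the activator of the kinase Cdk5, by 0.53 ± 0.13 (adjusted p = 0.000335 and 0.00673). Cdk5 itself was lower, with log2 levels of 8.59, 7.61 and 7.72 against 10.17, 10.11 and 9.14 and a log2 difference of -1.84 ± 0.30 (adjusted p = 0.000447). Ackr3, a scavenging chemokine receptor, was lower at a log2 difference of -2.21 ± 0.11 (adjusted p = 1.89e-07) and the chemokine Cxcl14 at -1.73 ± 0.21 (adjusted p = 5.21e-05).

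Reln also belongs to the markers of Cajal-Retzius cells, of which 8 of 14 were higher, at a median log2 difference of 0.77. Ndnf, a secreted factor of these cells and of some interneurons, read log2 levels of 10.70, 11.53 and 11.14 in tgTbr2GFP and 7.96, 9.14 and 7.86 in NesGFP, a log2 difference of 2.80 ± 0.33 (adjusted p = 4.41e-05). Car10 and Cacna2d2 were higher at log2 differences of 1.78 ± 0.32 and 1.37 ± 0.23. Lhx1 and Trp73, transcription factors of Cajal-Retzius cells picked out after their values were seen, were higher at log2 differences of 1.00 and 0.74 (adjusted p = 0.0025 and 0.00134). The remaining 6 of the 14 were not called. Among them Calb2 had the lowest log2 difference of the list, at -0.58 (adjusted p = 0.0539). The mean log2 level of the 14 genes was 7.78, 8.30 and 8.13 on tgTbr2GFP arrays 1, 2 and 3 and 7.04, 7.25 and 7.09 in NesGFP. The glutamate transporter Slc17a6, another gene of these neurons and of other excitatory ones, is given below among the largest differences. How far Cajal-Retzius cells contributed to these levels was not tested.

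Most channels of excitable cells were higher. Of 26 voltage-gated sodium and calcium channel genes, 16 were higher and 2 lower, at a median log2 difference of 0.59, and both lower calls were lost under cyclic loess or centring. Scn3a, the sodium channel subunit of immature neurons, read log2 levels of 9.002, 9.57 and 9.03 in tgTbr2GFP and 6.62, 6.30 and 5.43 in NesGFP, a log2 difference of 3.08 ± 0.26 (adjusted p = 3.7e-06). Cacna2d1, an auxiliary calcium channel subunit, read 9.996, 10.31 and 9.92 against 7.53, 6.26 and 7.63 on the log2 scale, a log2 difference of 2.94 ± 0.29 (adjusted p = 1.23e-05). Scn2a was higher by 2.17 ± 0.48, with log2 levels of 11.08, 10.98 and 11.12 against 7.89, 8.35 and 10.42, so that NesGFP array 3 lay close to the tgTbr2GFP arrays.

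Of 15 ionotropic glutamate receptor genes, 5 were higher and 5 lower, and leaving out NesGFP array 1 or 2 or tgTbr2GFP array 2 or 3 reduced the lower count to 2 or 3. Gria2 was followed by Grin2b, the NMDA receptor subunit of young neurons, with log2 levels of 9.26, 8.98 and 9.06 against 6.95, 7.18 and 7.21 and a log2 difference of 1.99 ± 0.11 (adjusted p = 3.94e-07). Grin2c and Grik3 were lower at log2 differences of -0.99 ± 0.14 and -0.94 ± 0.17 (adjusted p = 0.000131 and 0.00114). Of 11 genes of GABA-A receptors and chloride transporters, 4 were higher and 1 lower. The subunits Gabra2 and Gabrb2 were higher by 2.27 ± 0.40 and 2.19 ± 0.25, while Gabrg1, a subunit also found in glia, was lower at a log2 difference of -1.95 ± 0.30 (adjusted p = 0.000837, 3.31e-05 and 0.000293). Of 34 synaptic vesicle and organizer genes, 16 were higher and 6 lower. Pclo, a scaffold of the presynaptic zone, was higher by a log2 difference of 1.55 ± 0.14, Lrrtm2 by 1.54 ± 0.18 and Syt4 by 1.44 ± 0.18. Sv2a, a vesicle glycoprotein, was lower, with log2 levels of 9.60, 9.16 and 9.26 against 10.91, 10.89 and 11.22 and a log2 difference of -1.67 ± 0.15 (adjusted p = 5.47e-06).

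Most neuronal RNA-binding and splicing genes were higher: 20 of 27 were higher and 1 lower, at a median log2 difference of 0.87. Behind Elavl4 and Elavl2 came Fmr1, the fragile X protein, with log2 levels of 9.60, 9.82 and 9.53 against 8.66, 8.28 and 8.19 and a log2 difference of 1.27 ± 0.15 (adjusted p = 3.57e-05), and the splicing factor Rbfox1 at 1.22 ± 0.18 (adjusted p = 0.000267). The lower member was Ptbp1, a splicing repressor of non-neuronal cells and progenitors, with log2 levels of 8.06, 7.89 and 8.10 against 8.83, 8.45 and 8.45. Its log2 difference was -0.56 ± 0.13 (adjusted p = 0.00479). Of 31 chromatin regulators, 13 were higher and 3 lower, and without NesGFP array 3 the lower count was 5. Suz12, a subunit of the Polycomb complex that methylates histone H3, was higher by a log2 difference of 2.11 ± 0.22, and Chd7, a remodeller needed for granule neurogenesis, by 1.70 ± 0.33. The methylcytosine oxidases Tet2 and Tet1 were higher at log2 differences of 1.57 ± 0.10 and 1.26 ± 0.15. Hdac1 and the DNA methyltransferase Dnmt3a were lower at log2 differences of -0.88 ± 0.13 and -0.54 ± 0.13 (adjusted p = 0.000182 and 0.00497).

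The 12 largest differences in each direction were taken among called genes whose arrays did not overlap between the lines. Small RNAs, predicted genes and immunoglobulin, T cell, olfactory and vomeronasal receptor genes were left out. Over all genes tested the highest log2 difference was 4.24, in a gene outside this rule. Among the 12 higher ones was Slc17a6, the vesicular glutamate transporter VGLUT2. It read log2 levels of 9.71, 10.32 and 9.70 in tgTbr2GFP and 6.09, 6.92 and 5.88 in NesGFP. Its log2 difference was 3.62 ± 0.27 (adjusted p = 1.68e-06). Fat3, a giant cadherin that shapes dendrites, read 10.96, 11.68 and 11.37 against 7.59, 8.87 and 7.49 on the log2 scale, a log2 difference of 3.35 ± 0.32 (adjusted p = 1.05e-05). Rock1, a kinase that acts on the actin cytoskeleton, had the most even arrays, with log2 levels of 10.78, 10.93 and 10.92 against 7.88, 7.92 and 7.70 and a log2 difference of 3.05 ± 0.10 (adjusted p = 7.95e-08). Thoc2l was the largest of the 12 at 4.12 ± 0.34, and Amy1, an amylase, was at 3.89 ± 0.32. Zfp729b, Phxr4, Kcnh7, Ankrd12 and B3galt2 were at 2.94 to 3.10. Amy1, Zfp729b and Thoc2l have close relatives in the genome that a probe set could also read. Reln and Scn3a complete the 12.

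**Figure D3:**
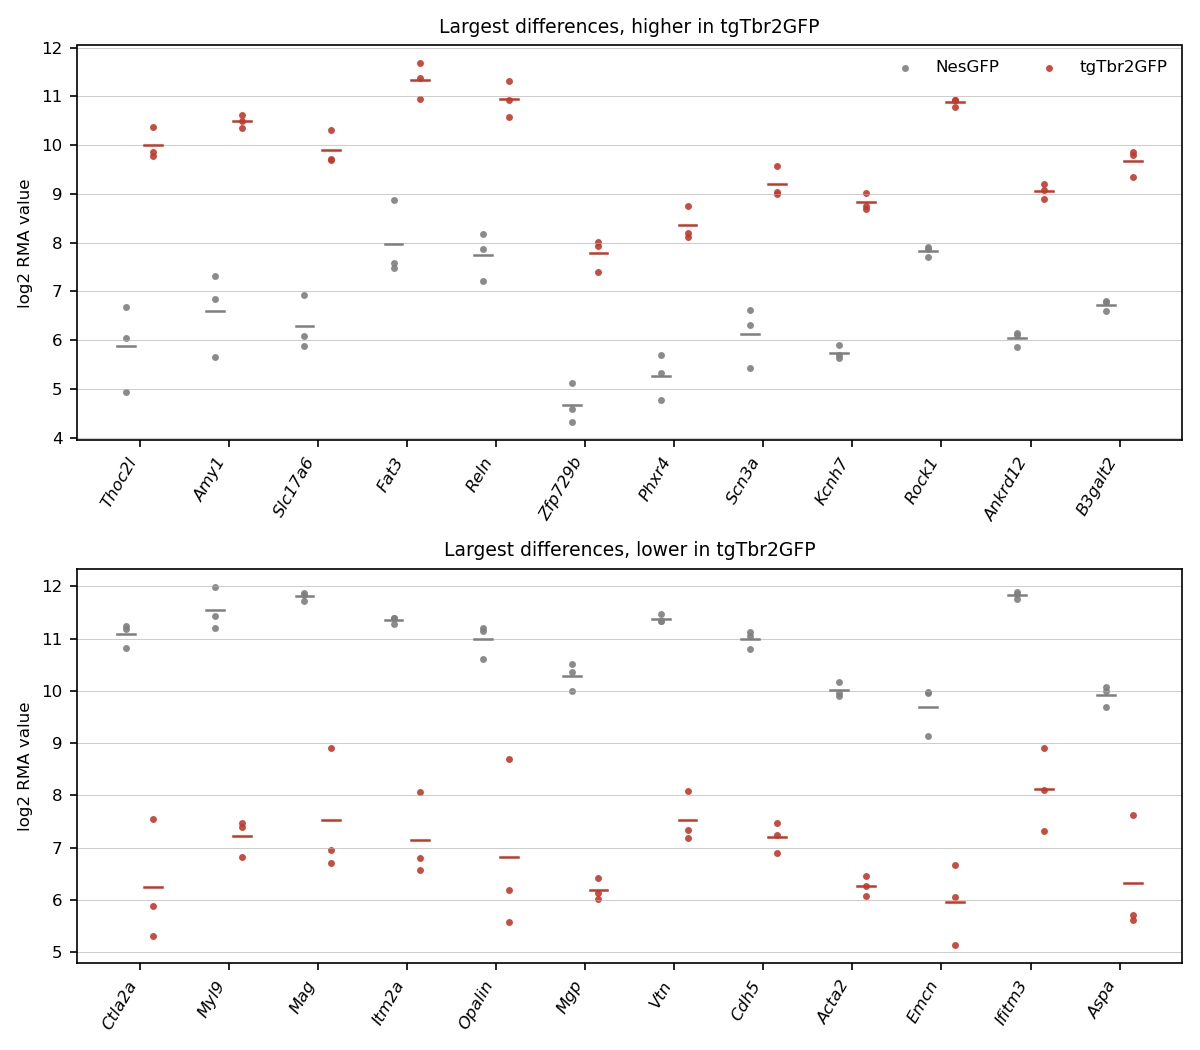
Log2 RMA level (y axis) of the 12 genes with the largest higher and the 12 with the largest lower log2 difference in tgTbr2GFP, a point for each array of NesGFP (grey) and tgTbr2GFP (red). Only genes whose arrays did not overlap between the lines were eligible. For Mag, Opalin, Aspa and Ctla2a tgTbr2GFP array 1 is the highest red point.

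Of the 12 largest lower differences, Ctla2a, a protease inhibitor abundant in endothelium, read log2 levels of 7.55, 5.31 and 5.89 in tgTbr2GFP and 11.19, 10.83 and 11.25 in NesGFP, a log2 difference of -4.84 ± 0.59 (adjusted p = 5.4e-05). On tgTbr2GFP arrays 2 and 3 Ctla2a lay under the 25th percentile, so that this size is imprecise. Cdh5, Itm2a (-4.21) and Emcn (-3.74) are other endothelial genes of the 12, while Myl9 (-4.32), Vtn (-3.85) and Acta2 belong to mural cells and Mgp (-4.10) to vessels and meninges. Mag, Opalin and Aspa (-3.61) are genes of oligodendrocytes. The remaining member is Ifitm3, an antiviral membrane protein, with log2 levels of 8.91, 7.33 and 8.11 against 11.85, 11.75 and 11.89 and a log2 difference of -3.71 ± 0.47 (adjusted p = 7.14e-05). Ifitm3 belongs to 19 interferon response genes, of which 12 were lower and 2 higher, at a median of -0.65. Ifit3 was lower at a log2 difference of -2.73 ± 0.26 and B2m, the light chain of class I antigen-presenting molecules, at -2.31 ± 0.18.

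Most lipid synthesis genes were lower. Of 19 cholesterol synthesis genes 18 were lower, at a median log2 difference of -1.23. Msmo1, a sterol demethylase, read log2 levels of 8.74, 7.82 and 7.06 in tgTbr2GFP and 10.89, 10.96 and 10.99 in NesGFP, a log2 difference of -3.07 ± 0.31 (adjusted p = 1.37e-05). Idi1, which isomerises the isoprenoid building block, was lower at a log2 difference of -1.81 ± 0.31, the sterol isomerase Ebp at -1.78 ± 0.27 and the dehydrogenase Nsdhl at -1.70 ± 0.32 (adjusted p = 0.00068, 0.000257 and 0.00124). Mvk, mevalonate kinase, was the member not called, at -0.59 (adjusted p = 0.0654). Fatty acid synthesis genes were lower in 15 of 18 cases, with Elovl1 (-2.96), Elovl7 (-2.69), the desaturase Scd2 (-2.48) and Fads2 (-2.07) at the lower end. Elovl6 was higher by a log2 difference of 0.46 (adjusted p = 0.016), a call lost without tgTbr2GFP array 1 (adjusted p = 0.0566).

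Windows of 5 cholesterol synthesis promoters are printed, chosen after the values of their genes were seen, and the differences of these genes were unequal. All 5 promoters hold a CCAAT box. The window of Hmgcs1 marks another motif, and the CCAAT boxes of its promoter lie outside that window. RefSeq (GRCm38.p6) gave 19 promoters for 16 of the 19 genes. The CCAAT box, searched as above and bound by nuclear factor Y, was present in 16 of the 19 (84.2%). The sterol regulatory element, searched as TCACNCCAC and its reverse complement GTGGNGTGA over the same 250 bases, was present in 1 of the 19, that of Hmgcs1, and in 1.00% of the promoters of tested genes. Capitals mark the TCACNCCAC match for Hmgcs1 and the CCAAT or ATTGG match for the others.
Hmgcs1, chr13:119690189-119690248, plus strand: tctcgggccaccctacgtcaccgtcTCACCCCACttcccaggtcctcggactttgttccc
Msmo1, chr8:64733642-64733701, minus strand: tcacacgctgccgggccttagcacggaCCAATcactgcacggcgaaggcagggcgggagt
Idi1, chr13:8885534-8885593, plus strand: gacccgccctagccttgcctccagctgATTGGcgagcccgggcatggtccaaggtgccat
Ebp, chrX:8193535-8193594, minus strand: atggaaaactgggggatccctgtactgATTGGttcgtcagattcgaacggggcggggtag
Mvk, chr5:114444122-114444181, plus strand: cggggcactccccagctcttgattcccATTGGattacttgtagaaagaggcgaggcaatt
Hmgcs1, the synthase at the head of the pathway, was lower at -1.15 (adjusted p = 0.00201), with log2 levels of 9.80, 9.16 and 9.14 in tgTbr2GFP and 10.29, 10.88 and 10.39 in NesGFP. Letters missing from a window of 250 bases say nothing about a factor that may bind elsewhere.

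Genes of fatty acid oxidation and glycolysis moved in the same direction as those of lipid synthesis. Of 20 fatty acid oxidation genes 16 were lower, at a median log2 difference of -1.25. Cpt1a, the enzyme that admits fatty acids to mitochondria and a regulator of stem cell quiescence in the dentate gyrus, read log2 levels of 7.45, 7.22 and 7.06 in tgTbr2GFP and 9.16, 9.18 and 8.97 in NesGFP, a log2 difference of -1.86 ± 0.13 (adjusted p = 1.03e-06). Echs1, Decr1 and Acaa2 were lower at log2 differences of -1.79, -1.73 and -1.67. Of 18 glycolysis genes 14 were lower, at a median of -0.96. The glucose transporter Slc2a1, abundant in the endothelium of the blood-brain barrier, read log2 levels of 8.90, 8.77 and 8.50 against 11.83, 11.65 and 11.67 and was lower at -2.99 ± 0.15 (adjusted p = 1.83e-07). The lactate transporter Slc16a1 and the aldolase Aldoc, the latter typical of astrocytes, were lower at log2 differences of -2.28 ± 0.24 and -2.08 ± 0.15, and the muscle-type phosphofructokinase Pfkm at -1.33 ± 0.21. Of 81 subunits of the mitochondrial respiratory chain, a group formed after the data were seen, 67 were lower, at a median of -0.59, with 60 lower after cyclic loess and 55 after centring. The glial and vascular levels given above fell on the same tgTbr2GFP arrays, and their part in the metabolic differences was not tested.

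Of 29 immediate early and dissociation stress genes, which can respond to tissue preparation, 5 were higher and 9 lower, and after cyclic loess 8 were higher. Their mean log2 level was 8.08, 8.22 and 8.37 in tgTbr2GFP and 8.51, 8.44 and 8.41 in NesGFP. The chaperone Hsp90aa1 was higher by 1.10 ± 0.13 and Egr2 by 0.93 ± 0.22, while the small heat shock protein Hspb1 was lower at a log2 difference of -2.19 ± 0.14, Ier3 at -2.16 ± 0.20 and Hspa1a at -1.37 ± 0.26 (adjusted p = 4.15e-05, 0.00581, 7.17e-07, 8.2e-06 and 0.00144).

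MicroRNAs are short RNAs that pair with target transcripts through their seed, bases 2 to 8, and repress them. Of 163 microRNA genes measured, a group formed after the data were seen, 66 (40.5%) were higher and 2 (1.23%) lower, beside 15.8% and 25.8% of all genes, at a median log2 difference of 0.40. A gene could pass the filter through the lines where it is high, and with no filter 81 of 297 were higher and 4 lower, at a median of 0.23. The probe sets carry the name of the microRNA gene, and whether they read the mature RNA, the hairpin or a longer precursor was not tested. RefSeq (GRCm38.p6) mature sequences are printed for the 6 with the largest higher differences and for Mir219a-1, with the seed in capitals.
miR-99a-5p, chr16:77598940-77598961, plus strand: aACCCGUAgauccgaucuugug
let-7c-5p, chr16:77599672-77599693, plus strand: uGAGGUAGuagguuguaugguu
miR-690, chr16:28599940-28599961, minus strand: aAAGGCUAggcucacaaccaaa
miR-350-3p, chr1:176772342-176772363, minus strand: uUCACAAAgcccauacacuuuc
miR-340-5p, chr11:50069720-50069741, plus strand: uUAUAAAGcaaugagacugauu
miR-325-3p, chrX:105379105-105379126, minus strand: uUUAUUGAgcaccuccuaucaa
miR-219a-5p, chr17:34025052-34025072, minus strand: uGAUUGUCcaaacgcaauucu
No seed is shared among these 7 sequences.

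Mir99a read log2 levels of 11.04, 11.37 and 11.26 in tgTbr2GFP and 5.33, 7.20 and 8.68 in NesGFP, a log2 difference of 4.15 ± 0.60 (adjusted p = 0.000196). Its NesGFP arrays were widely spread, though all lay below the tgTbr2GFP arrays, which was a condition for naming these microRNAs. Mirlet7c-1, the neighbour of Mir99a on chromosome 16, read log2 levels of 7.84, 8.39 and 7.73 against 3.77, 3.96 and 4.29, a log2 difference of 3.98 ± 0.23 (adjusted p = 4e-07). The long RNA Mir99ahg, host of this pair and named after its values were seen, read 10.89, 10.89 and 10.91 against 8.99, 7.40 and 8.28 on the log2 scale, a log2 difference of 2.67 ± 0.29 (adjusted p = 2.31e-05). The miR-99 seed also occurs in Mir100, which was higher by a log2 difference of 1.16 (adjusted p = 0.000557), and in Mir99b, which differed by -0.21 (adjusted p = 0.277). Among the measured genes with the let-7 seed, Mirlet7a-1 and Mirlet7d were higher by 0.51 and 0.50, while Mirlet7g, Mirlet7i, Mirlet7e and Mirlet7f-1 had log2 differences of 0.15, 0.13, 0.14 and -0.50 and were not called. Genes with the same seed thus did not all pass.

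Mir690, Mir350 and Mir325 were higher at log2 differences of 4.08 ± 0.27, 3.60 ± 0.17 and 3.397 ± 0.34. The NesGFP levels were 3.75, 3.36 and 3.85 for Mir690, 4.20, 4.75 and 4.88 for Mir350 and 4.60, 5.09 and 5.45 for Mir325 on the log2 scale. All of these lie under the 25th percentile of those arrays, so that the sizes are imprecise. Mir340 read 8.41, 7.70 and 8.37 in tgTbr2GFP and 7.40, 3.26 and 3.01 in NesGFP on the log2 scale, where NesGFP array 1 stood near the tgTbr2GFP arrays, and its log2 difference was 3.60 ± 0.91 (adjusted p = 0.00789). On NesGFP arrays 2 and 3 Mir340 also lay under the 25th percentile. The 2 lower genes were Mir219a-1, an oligodendrocyte microRNA, at -0.43 ± 0.12 (adjusted p = 0.0119), and Mir129-2 at -0.42 ± 0.13 (adjusted p = 0.023), a call lost without any of 4 single arrays (adjusted p from 0.0623 to 0.0858). A second locus of the same mature microRNA, Mir219a-2, differed by -0.58 (adjusted p = 0.111), and Mir129-1 by 0.02.

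Gene length moved with the direction of the difference. The genomic span was known for the protein-coding genes, and this grouping was made after the data were seen. Genes called higher spanned a median of 49.5 kb and genes called lower 18.9 kb, and past a 2-fold difference the higher genes spanned 65.7 kb. Among the 3110 shortest protein-coding genes, of 6527 bp or less, 243 (7.81%) were higher and 866 (27.8%) lower. Among the 3110 longest, of 68718 bp or more, 918 (29.5%) were higher and 693 (22.3%) lower. After cyclic loess the higher counts were 390 among the shortest and 1135 among the longest. With no filter on low values, 236 of the 3711 shortest and 993 of the 3711 longest were higher, while the order of the lower counts turned round, with 654 among the shortest and 743 among the longest. Inside groups the spans differed in either direction. The 20 higher guidance genes spanned a median of 255 kb and the 14 lower ones 25.6 kb, the 16 higher synaptic genes 468 kb and the 6 lower ones 18.4 kb, and the 20 higher mitosis genes 34.9 kb and the 24 not called 19.8 kb. Among immature granule neuron genes the 11 higher ones spanned 52.1 kb and the 2 lower ones 152.6 kb, and among the stage markers the 10 higher ones spanned 10.3 kb and the 4 lower ones 17.7 kb. Whether gene length, amplification or the number of probes bears on these differences was not tested.

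**Figure D4:**
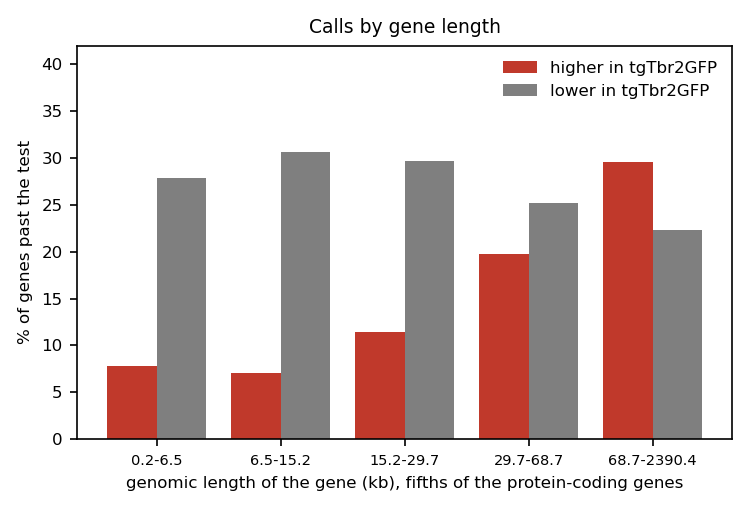
Percent of protein-coding genes (y axis) called higher (red) or lower (grey) in tgTbr2GFP, by genomic length in 5 groups of equal size (x axis, in kb). The higher share is 7.81% among the shortest and 29.5% among the longest genes, and the lower share is 27.8% and 22.3%, an order that turns round with no filter on low values (654 and 743 of 3711).

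Other families were also formed after the data were seen. Of 321 zinc finger genes named Zfp, 126 were higher and 19 lower, at a median log2 difference of 0.27. Of 533 long noncoding RNA genes 117 were higher and 25 lower, at a median of 0.17. Of 275 olfactory and vomeronasal receptor genes, with a mean log2 level of 6.29 in NesGFP, 39 (14.2%) were higher and 0 lower. Their median was also 0.17, and the higher share was below the 15.8% of all genes. Such genes could pass the filter through the lines where they are high. With no filter 75 of 1194 were higher and 4 lower, at a median of 0.09. Whether the higher low end of the tgTbr2GFP arrays bears on the shares of these families or of the microRNA genes was not tested. Of 22 clustered protocadherins, adhesion proteins that give neurons individual identities, 10 were higher, at a median of 0.49. Of 323 solute carriers, the transporters of small molecules across membranes, 107 were lower and 27 higher. Of 59 ribosomal protein genes 15 were lower and 2 higher, at a median of -0.08, close to that of all genes.

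The kiTbr2GFP arrays tested whether the contrast was the same in the second Tbr2 reporter line. A difference between tgTbr2GFP and kiTbr2GFP is the difference between the contrasts of the lines with NesGFP, since the NesGFP arrays cancel. Of 16527 genes 185 (1.12%) passed, 113 (0.684%) higher and 72 (0.436%) lower in tgTbr2GFP than in kiTbr2GFP. Of the 185, 64 were higher and 58 lower in tgTbr2GFP than in NesGFP, and 63 were not called there. The counts depend on the weight of single arrays: with array weights 832 were higher and 561 lower, whereas without kiTbr2GFP array 1, 2 or 3 or tgTbr2GFP array 1 or 3 the higher count was 28 to 46, and the lower count was 30 to 56 over all arrays left out. Against NesGFP itself, 7472 genes (45.2%) were called in kiTbr2GFP, and both contrasts use the same 3 NesGFP arrays. Of the 4 sex-linked genes measured, 0 passed between the Tbr2 lines. Their mean log2 level was 9.33, 9.26 and 9.11 in kiTbr2GFP and 8.38, 6.65 and 8.44 in tgTbr2GFP. That mean pools Xist with Y-linked genes and so does not measure the sex of the cells. With a covariate for Y-linked genes, chosen after seeing the data, 150 genes were higher and 44 lower in tgTbr2GFP than in kiTbr2GFP.

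Many mitosis genes were lower in tgTbr2GFP than in kiTbr2GFP. Of the 47, 25 passed as lower, at a median log2 difference of -0.96, and leaving out single arrays gave 10 to 22. Their mean log2 level was 7.14, 7.31 and 7.14 on the NesGFP arrays, 7.68, 7.78 and 7.72 on the tgTbr2GFP arrays and 8.77, 8.59 and 8.47 on the kiTbr2GFP arrays. Mki67 read log2 levels of 9.30, 8.95 and 9.03 in kiTbr2GFP, a tgTbr2GFP minus kiTbr2GFP difference of -1.16 (adjusted p = 0.00462). Kif11 read 9.93, 9.66 and 9.45 in kiTbr2GFP on the log2 scale, a difference of -1.71. The tgTbr2GFP arrays thus lay between those of the other lines for both genes. Knl1 differed by -1.38 and Top2a, picked out after its values were seen, by -1.26 (adjusted p = 0.0151 for Top2a). The call for Knl1 was lost without kiTbr2GFP array 1 (adjusted p = 0.0593).

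Eomes levels of the Tbr2 lines overlapped. The gene read log2 levels of 10.07, 9.93 and 9.93 in kiTbr2GFP, which overlap those of tgTbr2GFP, and the log2 difference was 0.21 ± 0.20 (adjusted p = 0.953). A BAC can carry neighbouring genes, and RefSeq gives Golga4 as the next gene on one side of Eomes. Golga4, a Golgi tether, was higher in tgTbr2GFP than in NesGFP by 1.93 ± 0.14 (adjusted p = 1.49e-06) and differed from kiTbr2GFP by 0.06 (adjusted p = 0.998). On the other side, Cmc1, Azi2 and Zcwpw2 lie closer to Eomes and were not called against NesGFP, at log2 differences of -0.16, 0.23 and 0.35. Rbms3, the RNA-binding protein gene beyond them, was higher than in NesGFP by 1.22 ± 0.11 and lay on all tgTbr2GFP arrays above all kiTbr2GFP arrays, at a log2 difference of 0.48 that did not pass (adjusted p = 0.0797). Itga9 and Tgfbr2, the genes beyond Golga4 and Rbms3, were lower than in NesGFP, at log2 differences of -0.71 and -0.66. All of these neighbours were looked up after the data were seen, and which genes the BAC holds is not given in the sources used here.

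Genes of mature neurons and astrocytes were higher in tgTbr2GFP than in kiTbr2GFP in some cases. Of 28 mature neuron genes 5 were higher, and of 24 astrocyte genes 6, with 2 to 7 and 0 to 6 when single arrays were left out. Camk2a, the kinase of mature excitatory synapses, read log2 levels of 10.88, 9.70 and 10.25 in tgTbr2GFP, 8.16, 8.84 and 8.37 in kiTbr2GFP and 10.44, 10.30 and 10.20 in NesGFP. Its log2 difference was 1.82 from kiTbr2GFP (adjusted p = 0.00878) and -0.04 from NesGFP (adjusted p = 0.928). Of the astrocyte genes, Htra1 differed from kiTbr2GFP by 1.15 and Hopx, of the stem cell list, by 0.66 (adjusted p = 0.0187 and 0.0219); both had been lower than in NesGFP, and both calls were lost without single arrays (adjusted p up to 0.0977 and 0.102).

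Single genes set tgTbr2GFP apart from kiTbr2GFP in different ways. Fam183b, a gene of ciliated cells, read log2 levels of 9.31, 9.58 and 8.83 in tgTbr2GFP, 6.28, 6.65 and 6.61 in kiTbr2GFP and 6.80, 6.11 and 6.53 in NesGFP. It differed from kiTbr2GFP by 2.73 (adjusted p = 0.00056) and from NesGFP by 2.76 ± 0.22 (adjusted p = 2.59e-06). Cdh9, a cadherin of hippocampal neurons, read 8.41, 7.35 and 7.63 against 5.85, 5.31 and 5.45 in kiTbr2GFP on the log2 scale, a log2 difference of 2.25 (adjusted p = 0.00553). Cwc22, a splicing factor, lay between the lines, at log2 levels of 9.19, 8.71 and 8.69 in tgTbr2GFP, 11.44, 11.37 and 11.32 in kiTbr2GFP and 6.78, 7.83 and 7.49 in NesGFP. Its log2 difference from kiTbr2GFP was -2.51 and that of Hfm1, a meiotic helicase, -2.14 (adjusted p = 0.00117 for both). The Hfm1 levels of tgTbr2GFP, at 5.57, 5.27 and 5.34, were as low as those of NesGFP, whereas kiTbr2GFP read 7.63, 7.90 and 7.05. The tgTbr2GFP levels of Hfm1 and the kiTbr2GFP levels of Cdh9 lie under the 25th percentile of their arrays, so that these sizes are imprecise.

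**Figure D5:**
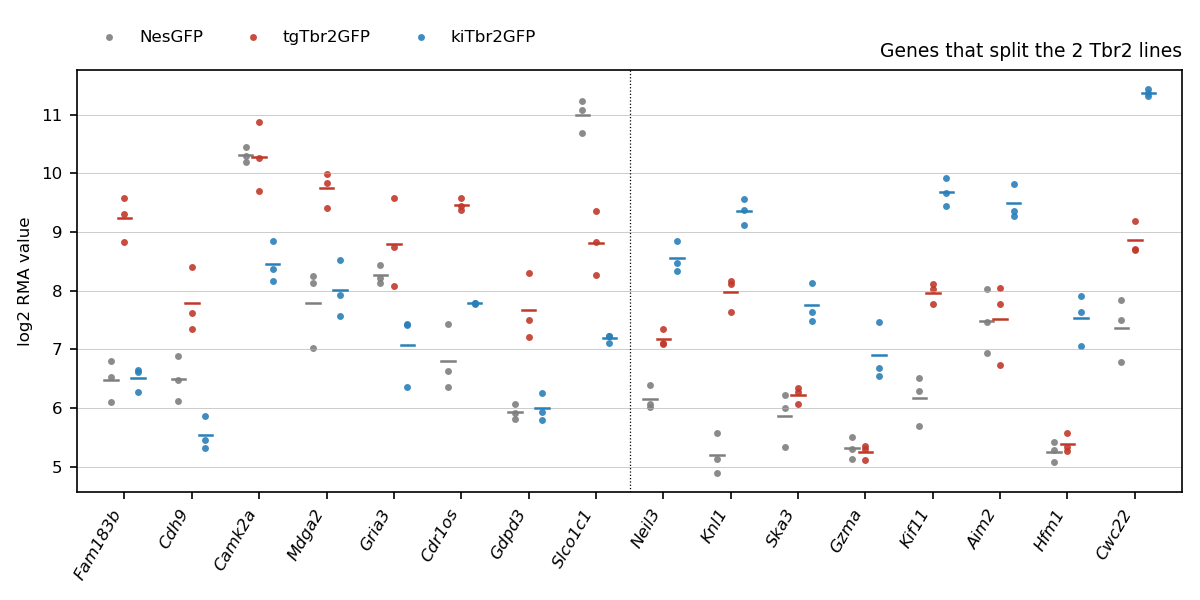
Log2 RMA level (y axis) of the 8 genes with the largest higher and the 8 with the largest lower log2 difference of tgTbr2GFP from kiTbr2GFP, a point for each array of NesGFP, tgTbr2GFP and kiTbr2GFP. Fam183b is high on the 3 tgTbr2GFP arrays alone, Camk2a is low on the kiTbr2GFP arrays, and for Cwc22 and Kif11 the tgTbr2GFP arrays lie between those of the other lines.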

How the data were processed

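The deposited values are log2 expression from the series matrix, computed by the authors with RMA (oligo in R) per the submitters' processing notes, without versions. Of 28858 probe sets 21789 name 1 gene symbol, and 1621 with several and 5448 with none were left out. A probe set was kept if above its array's 25th percentile on at least 2 arrays (18097), and the highest mean over all arrays chose among those of a gene (16527 genes). RefSeq (GRCm38.p6) matched 21698 of the 21789 probe sets with 1 symbol, by gene identifier, and no symbol was changed.

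All 11 arrays, grouped by title, were fitted with limma 3.58.1 in R 4.3.3 (a mean per line, eBayes, 7 residual and 4.22 prior degrees of freedom, two-sided), with Benjamini-Hochberg adjustment over all genes and a threshold of 0.05. The fit was also run on simulated data with independent noise and few changed genes. That setting differs from these data, where 41.6% of genes passed. 3 arrays per line limit the precision. Sequences were read with Python 3.11.15.

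Members and gene lists were chosen with earlier results of these data known. Genes named are the 12 largest differences in each direction, up to 6 microRNAs in each direction and the stage markers. Up to 4 members in each direction and 2 not called per list are also named. So are the 8 largest differences from kiTbr2GFP in each direction. The largest differences and the microRNAs were taken only from called genes whose arrays did not overlap between the lines compared. Predicted genes, small RNAs and immunoglobulin, T cell, olfactory and vomeronasal receptor genes were left out of the largest differences. Other genes are marked as chosen after their values were seen. 1 gene of the stage panel is not reported here. Alternatives were other filters, scalings, probe set rules and spreads, weights per array, a block for the replicate number, each array left out, and a covariate for Y-linked genes, the last chosen after seeing the data.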

Additional observations from a re-analysis of the deposited data

Results flagged for a closer look

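For 26 of the named genes the difference from NesGFP was not the same in tgTbr2GFP and kiTbr2GFP, by the limma test of the difference between those differences, in which the NesGFP arrays cancel. The values that follow are log2 differences, tgTbr2GFP minus kiTbr2GFP. Of genes higher in tgTbr2GFP, Fam183b had 2.73, the neuronal cadherin Cdh9 2.25, the synaptic kinase Camk2a 1.82, the adhesion gene Mdga2 1.74, the AMPA receptor subunit Gria3 1.74, Cdr1os 1.68, Gdpd3 1.67 and the transporter Slco1c1 1.63. The GABA-A receptor subunits Gabrb2 and Gabrg3 had 1.35 and 1.32, Htra1 1.15, Hopx 0.66 and Ncdn 0.65.

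The named genes lower in tgTbr2GFP were drawn in part from lists of cell cycle genes. Rbl1, a relative of the retinoblastoma protein, had -0.77, Birc5 -0.82, Cdca8 -0.91, Mki67 -1.16, Cenpe -1.19, the DNA glycosylase Neil3 -1.37, Knl1 -1.38, the kinetochore protein Ska3 -1.52 and Kif11 -1.71. The others were the granzyme Gzma at -1.65, the DNA sensor Aim2 at -1.97, Hfm1 at -2.14 and Cwc22 at -2.51. For Gzma the tgTbr2GFP arrays read 5.11, 5.36 and 5.29 and the kiTbr2GFP arrays 6.55, 6.69 and 7.46 on the log2 scale. NesGFP read 5.30, 5.13 and 5.50. The tgTbr2GFP and NesGFP levels of Gzma lie under the 25th percentile of their arrays, so that its size is imprecise. Aim2 read 8.05, 7.77 and 6.74 in tgTbr2GFP and 6.94, 7.46 and 8.02 in NesGFP, which overlap.

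The calls for Aim2, Birc5, Cdca8, Cdr1os, Gabrb2, Gabrg3, Gria3, Hopx, Htra1, Knl1, Mdga2, Ncdn, Rbl1, Ska3 and Slco1c1 were each lost under at least 1 alternative, with adjusted p between 0.0502 and 0.181. Those for the other 11 passed under all alternatives that were run.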

How the results depend on the processing

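Against NesGFP, the counts of genes higher and lower in tgTbr2GFP (2605 and 4262) were 3551 and 3642 after cyclic loess, 3611 and 3614 after centring, 2701 and 4217 with no filter on low values, 2310 and 4179 with a filter at the 50th percentile, 2585 and 4190 with array weights and 2119 and 3544 with the compared lines fitted alone. Leaving out single arrays gave 2138 to 2860 higher and 3680 to 4550 lower, and past a 2-fold difference 972 to 1124 and 1513 to 1853. Against kiTbr2GFP (113 and 72), array weights gave 832 and 561, the compared lines alone 118 lower, the covariate for Y-linked genes (chosen after seeing the data) 44 lower, and leaving out single arrays 28 to 118 higher and 30 to 56 lower. Eif2s3y changed sign, from a log2 difference of -0.18 to 1.57 (adjusted p = 0.0145) without tgTbr2GFP array 2, with a range of -1.44 to 1.57 over single arrays left out, and Xist passed at 2.91 (adjusted p = 2.03e-06) without tgTbr2GFP array 1; the cause was not tested. Of 4104 values of named genes against NesGFP under these alternatives, 3902 kept their side of the threshold and, where called, their direction, 186 lost the call and 15 gained it, and 20 values of 7 results not called changed sign; against kiTbr2GFP 367 of 440 kept both and 73 lost the call. List medians moved by less than the spread between replicates in 606 of 680 cases. Deviations from the line means correlated at 0.0465, 0.0195 and 0.134 between same-numbered arrays of tgTbr2GFP and NesGFP. Between arrays of different number the correlations were -0.123 to 0.0947. These values do not settle whether the numbers pair the arrays, and the main fit did not pair them. With the replicate number as a block 2821 genes were higher and 4305 lower. Signal near the low end of an array limits the size of a difference for the genes named as such.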
